A study of Mus musculus with 13 samples.

Results

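The Sox genes encode transcription factors that bind DNA through an HMG box, a domain that sits in the minor groove and bends the helix. They fall into subgroups by the sequence of this box, and members of a subgroup are often expressed in overlapping cell types. Here 10 of them, given by their gene symbols, were followed through development of the mouse submandibular gland, a major salivary gland with serous and mucous secretion: the progenitor-associated genes Sox2 (group B1), Sox9 and Sox10 (group E), the group C genes Sox4, Sox11 and Sox12, the group D genes Sox5 and Sox6, and the group F genes Sox17 and Sox18. The symbols pick 10 of the 23364 genes with a value, and all 10 reached 1 FPKM (fragments per kilobase of gene, scaled to the reads of the library) in at least 1 sample, the minimum for testing. Sox5 did so through a lone sample, E14.5 replicate 1. As background, SOX2 marks stem and progenitor cells of many epithelia, including acinar progenitors of salivary glands. SOX9 is used by distal tip cells of branching organs and directs cartilage formation, and SOX10 is known for neural crest, Schwann cells and melanocytes as well as for salivary acinar and intercalated duct cells.

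Whole glands of C57BL/6 mice gave RNA for 13 sequenced samples. There were 3 of embryonic day E14.5, while E16.5, E18.5, postnatal day 5 (P5), 4 weeks (4wk) and 12 weeks (12wk) had 2 each. Each embryonic sample pooled the glands of several animals (3 per sample for E14.5, otherwise 2). Sex was not determined for embryos and P5 pups, and the 4wk and 12wk mice were male, so that age and sex cannot be told apart in any comparison with the adults. The labels name no treatment or mutation, and stages are embryo (E14.5 to E18.5, n = 7), neonatal (P5, n = 2) and adult (4wk and 12wk, n = 4).

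Embryonic samples held 17345305 to 37309531 reads on genes, with 42168626 and 48314162 at P5 and 5817293 to 28431454 in the adults, the lowest being the pair at 4wk. The 10 most abundant genes of a sample took 5.9% to 9.3% of its summed FPKM at E14.5 and E16.5. They took 29.2% to 31.1% at P5 and 48.1% to 61.1% in the adult, which leaves a smaller part of that sum for every other gene. Shares of reads can differ, since FPKM is scaled by gene length. Adult against embryo, the median over the 14650 tested genes was -0.75 on the log2(FPKM + 1) scale. For this reason the main comparisons of the Sox genes are also given on FPKM divided by median-of-ratios factors (a sample's median ratio to the geometric mean of each gene), here called rescaled FPKM, where that median is -0.08. The gland itself was marked as such: the summed level of 9 epithelial genes was 385 to 1680 FPKM in the embryo and 729 to 834 FPKM in the adult. That of 8 acinar secretory genes was 34.8 FPKM in E14.5 replicate 1 and 357 and 312 FPKM in the other E14.5 samples. In the adult it was between 49900 and 80600 FPKM. E14.5 replicate 1 stood apart, with a cartilage gene sum of 504 FPKM against 148 and 155 FPKM in the other E14.5 samples and an erythroid gene sum of 3370 against 485 and 868 FPKM. Skeletal muscle genes summed to 112 to 930 FPKM in the E14.5 and E16.5 samples, highest in E16.5 replicate 2, and to 2.84 and 22.7 FPKM at E18.5.

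The start of the HMG box shows how alike these genes are within a subgroup. The 75-base stretches of mouse coding sequence, in the mm9 build, are shown for Sox2 and for 3 of the subgroup pairs whose levels are compared. All are aligned without gaps, and capitals mark bases that differ from Sox2 at the same position.
Sox2, chr3:34549458-34549532 on the plus strand: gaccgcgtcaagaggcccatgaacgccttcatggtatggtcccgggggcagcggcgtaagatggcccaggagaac
Sox9, chr11:112644205-112644279 on the plus strand: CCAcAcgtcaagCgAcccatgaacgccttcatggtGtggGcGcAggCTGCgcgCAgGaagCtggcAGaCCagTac
Sox10, chr15:78993769-78993843 on the minus strand: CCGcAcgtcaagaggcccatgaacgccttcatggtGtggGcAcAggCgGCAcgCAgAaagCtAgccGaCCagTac
Sox4, chr13:29044648-29044722 on the minus strand: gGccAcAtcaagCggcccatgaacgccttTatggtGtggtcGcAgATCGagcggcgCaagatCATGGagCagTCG
Sox11, chr12:28027061-28027135 on the minus strand: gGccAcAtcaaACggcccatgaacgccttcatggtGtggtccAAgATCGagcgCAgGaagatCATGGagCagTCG
Sox5, chr6:143789731-143789805 on the minus strand: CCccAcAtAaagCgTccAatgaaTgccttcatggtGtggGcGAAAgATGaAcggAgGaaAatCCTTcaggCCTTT
Sox6, chr7:122633214-122633288 on the minus strand: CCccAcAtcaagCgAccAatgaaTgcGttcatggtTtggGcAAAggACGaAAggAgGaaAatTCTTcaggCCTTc
Over the whole HMG box, Sox4 and Sox11 were 89.5% identical, Sox9 and Sox10 83.1%, Sox5 and Sox6 82.7% and Sox17 and Sox18 82.3%. The closest pair from different subgroups, Sox9 and Sox17, shared 75.1%. In the GENCODE transcripts of coding genes, no 50-base window, the length of a read, was shared between any members, and with other genes a window was shared only by Sox5 (13 of 8194 windows). For Sox11 this covers 1964 windows of a model shorter than the one its reads were counted on.

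Sox2 had its highest level before birth and was nearly gone at 12wk. It lies at chr3:34548927-34551383 on the plus strand, within the span of the noncoding gene Sox2ot but clear of its exons. Its levels were 2.3, 3.28 and 3.2 FPKM at E14.5, 5.94 and 8.86 FPKM at E16.5, 10.1 and 10.1 FPKM at E18.5, and 7.98 and 7.34 FPKM at P5. At 4wk they were 1.05 and 2.3 FPKM, and at 12wk 0.0187 and 0.301 FPKM. In order of the mean, E18.5 stood above P5, E16.5, E14.5, 4wk and 12wk, and of these neighbours P5 overlapped E16.5 and E14.5 touched 4wk. The increase from E14.5 to E16.5 was 1.09 on the log2 scale (SE 0.23, limma adjusted p = 0.0092), a rise in Sox2 that stayed on rescaled FPKM at 1.03 (adjusted p = 0.023). Without E14.5 replicate 1 it was 0.97 and without E16.5 replicate 2 it was 0.83, both short of the log2 change of 1 required for a call. Skeletal muscle genes, at 930 FPKM, were highest in E16.5 replicate 2, and their part in its Sox values was not tested. Epithelial genes summed to 385 to 671 FPKM at E14.5 and to 1300 and 1680 FPKM at E16.5. Relative to their mean in the same sample, on log2(FPKM + 0.1), Sox2 was at -4.02 to -3.65 at E14.5. At E16.5 this log2 ratio was -3.85 and -3.73, so the rise was not seen against the epithelial genes. Their part in it was not tested. From P5 to 4wk Sox2 fell by 1.73 (SE 0.25, adjusted p = 0.00022), and from 4wk to 12wk it fell by a further 1.18 (SE 0.25, adjusted p = 0.013). On rescaled FPKM these changes were -1.27 and -1.47, both calls. The last step rests on few reads. There were 15 and 45 reads at 4wk and 1 and 21 reads at 12wk, and the 95% Poisson intervals of the 12wk samples, 0.000472 to 0.104 FPKM and 0.186 to 0.46 FPKM, did not overlap. Over both libraries Sox2 was 9.95-fold lower relative to depth at 12wk than at 4wk (95% interval 6.01 to 17, counting error only), and 56.7-fold lower than at E18.5 (37.3 to 90.9). The call at 12wk was lost without 4wk replicate 2 (-0.83, adjusted p = 0.037) and without 12wk replicate 1 (-1, adjusted p = 0.12). Adult against embryo as a whole, Sox2 fell by 1.91 (SE 0.39, adjusted p = 0.00051), and by 1.39 on rescaled FPKM (adjusted p = 0.013). In these whole-gland samples, fewer cells of a type and less RNA per cell cannot be told apart.

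**Figure D1:**
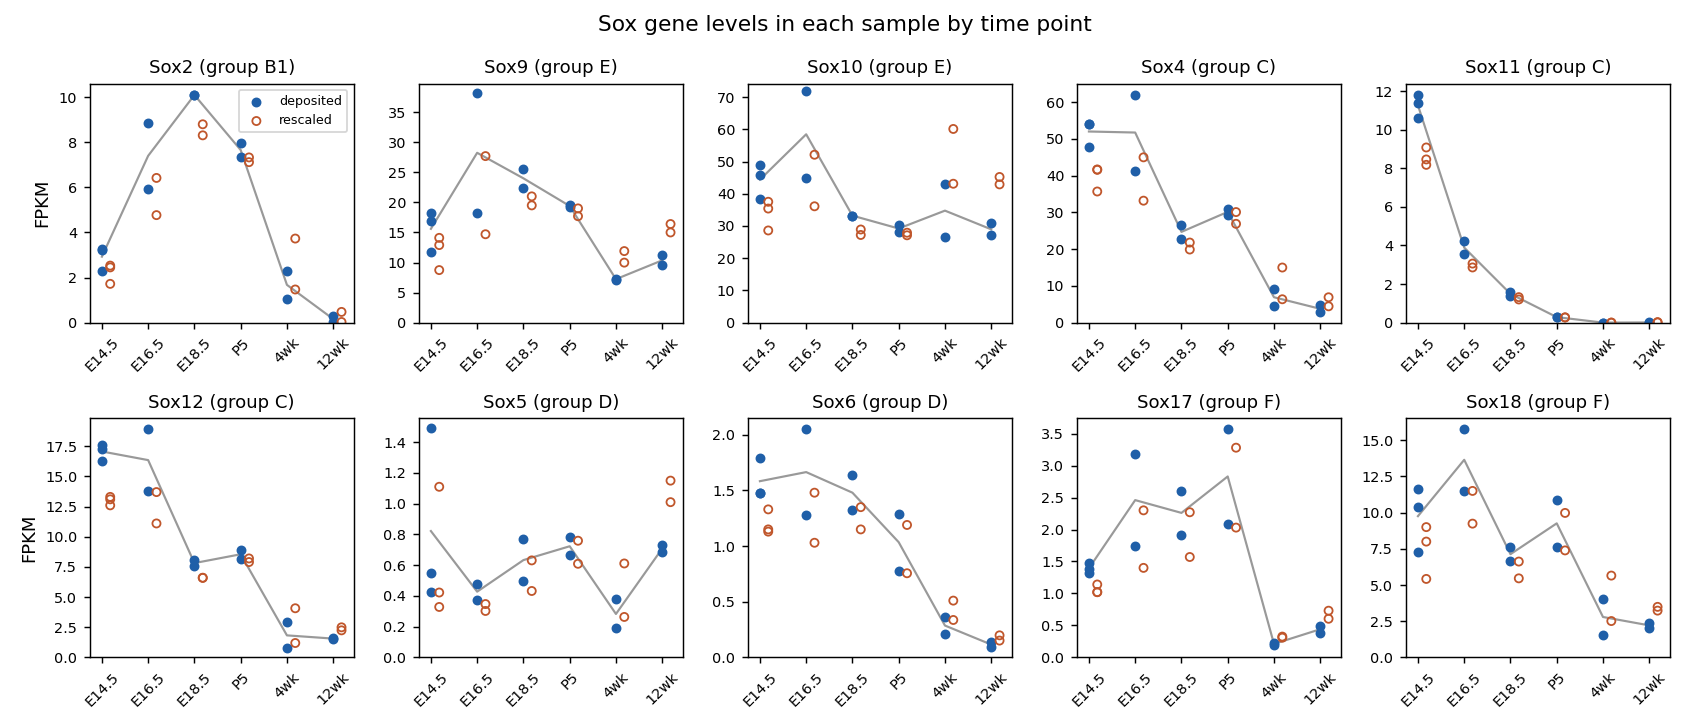
FPKM of the 10 Sox genes in each of the 13 samples (vertical axes, linear, from 0) by time point. Filled points are deposited values, open points rescaled values, and the line joins the means of the deposited values. Sox2 peaks at E18.5 at 10.1 FPKM, Sox11 declines from E14.5 onward, and Sox10 stays above 26 FPKM in every sample.

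Sox10, in contrast, was high in every sample of every age. The gene is at chr15:78985343-78994920 on the minus strand. It had 38.4, 45.8 and 48.9 FPKM at E14.5, 45 and 71.9 FPKM at E16.5, 33.2 and 33.2 FPKM at E18.5 and 30.4 and 28 FPKM at P5. In the adults it had 42.9 and 26.6 FPKM at 4wk and 30.8 and 27.1 FPKM at 12wk. Embryo and adult ranges overlapped, and neither the P5 nor the adult level passed the threshold against the embryo. Adult against embryo, the Sox10 difference was -0.47 on deposited FPKM (SE 0.2, adjusted p = 0.043) and 0.45 on rescaled FPKM (adjusted p = 0.029), so that its sign followed the scaling and its size stayed below the threshold on both. On rescaled FPKM the adult samples, 42.9 to 60.1, all lay above the P5 samples, 27.1 and 27.9, a difference of 0.76 (adjusted p = 0.027). Among the 10 genes Sox10 made up 27.2% to 29.4% of the summed FPKM at E14.5 and 54.8% to 67.7% at 4wk. That share counts what the other members lost as well.

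The levels of Sox10 cannot be assigned to epithelium or nerve from whole glands alone. Genes of Schwann cells and other glia, another home of SOX10, had embryonic sums of 55.6 to 95.7 FPKM, P5 sums of 58 to 69.2 FPKM and adult sums of 33.2 to 40.3 FPKM. Of these 10 genes 1 was higher and 1 lower in the adult than in the embryo, and 2 and 1 on rescaled FPKM. Fabp7, a lipid-binding protein of immature glia, fell by 3.88 (adjusted p = 1.4e-07), while Mbp, a myelin protein, differed by 0.19 (adjusted p = 0.2). Much of the fall in the sum was that of Fabp7, with means of 32.9 FPKM in the embryo and 1.15 FPKM in the adult. Erbb3 had means of 19.5 and 14.6 FPKM. Mal, at 1.08 and 6.49 FPKM, and Cdh19, at 1.02 and 2.09 FPKM, had higher means in the adult. Which cells made this RNA was not tested. The 5 pigment cell genes summed to at most 3.86 FPKM in any stage, and of the 2 that could be tested none passed in adult against embryo, while 1 was lower in adult against P5. Relative to the mean of the 9 epithelial genes in the same sample, Sox10 differed between adult and embryo by 0.12 on the log2 scale (exact permutation test, two-sided, p = 0.76).

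Sox9 had a profile between those of Sox2 and Sox10. It lies at chr11:112643538-112649074 on the plus strand, and its levels were 11.7, 18.2 and 16.9 FPKM at E14.5, 18.3 and 38.2 FPKM at E16.5 and 25.6 and 22.4 FPKM at E18.5. After birth they were 19.2 and 19.6 FPKM at P5, 7.13 and 7.33 FPKM at 4wk and 11.2 and 9.52 FPKM at 12wk. All 4 adult samples lay below all 7 embryonic ones. On deposited FPKM Sox9 fell by 1.15 from embryo to adult (SE 0.24, adjusted p = 0.00063) and by 1.31 from P5 to 4wk (SE 0.28, adjusted p = 0.0024). On rescaled FPKM neither was called, with -0.27 (adjusted p = 0.35) and -0.7 (adjusted p = 0.054), and the adult values, 9.98 to 16.4, lay within the range of the embryonic ones, 8.74 to 27.7. The fall against P5 over both adult ages, 1.08 (adjusted p = 0.018), was short of the threshold without 4wk replicate 1, at -1.

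The progenitor genes were also set against each other within a sample. Such a ratio hardly depends on scaling where both genes lie well above the 0.1 FPKM added here, but does so for genes near it. For 18 such within-sample ratios, 8 between Sox genes and 10 to a marker list, embryonic and adult means of log2(FPKM + 0.1) were compared by an exact two-sided permutation test over the 330 ways to label 7 embryonic and 4 adult samples. The smallest p this allows is 0.003. The Sox10 to Sox2 ratio averaged 3 ± 0.98 in the embryo (SD, n = 7) and 5.7 ± 1.89 in the adult (SD, n = 4), a gain of 2.71 (exact p = 0.012, 0.024 adjusted over the 18 ratios). Without 12wk replicate 1, where Sox2 had 1 read, it was 1.93 (exact p = 0.05). With a pseudocount of 1 it was 1.44 (exact p = 0.027). The ratio was not steady within the embryo, since it went from at most 4 at E14.5 to 1.7 at E18.5. For Sox9 to Sox2 the adult excess was 1.96 (exact p = 0.033, adjusted 0.059), with 1.06 to 2.71 when each sample was left out and p = 0.12 without 12wk replicate 1. Sox9 to Sox10 averaged -1.1 ± 0.5 in the embryo (SD, n = 7), -0.58 in the P5 pair and -1.84 ± 0.52 in adults (SD, n = 4). This loss of 0.74 for Sox9 against Sox10 (exact p = 0.045, adjusted 0.074) was no longer past 0.05 when any of 8 samples was left out, with p = 0.14 without 4wk replicate 1. Against the epithelial genes, Sox2 was lower in the adult by 2.58 (exact p = 0.003, adjusted 0.013) and Sox9 by 0.62 (exact p = 0.0091, adjusted 0.023). The Sox2 value was -1.74 without 12wk replicate 1 and -1.34 with a pseudocount of 1. Among these 3 genes Sox2 thus had the largest loss against epithelial genes, and for Sox10 no difference between adult and pooled embryo was detectable. Sox10 was not steady against the epithelial genes, however. Its log2 ratio to them was -0.26 to 0.35 at E14.5, -1.45 and -1.38 at E18.5 and -1.35 and -1.64 at P5. In the adult it was -0.83 to 0.28.

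The epithelial setting of these genes changed at the same time. Of the 9 epithelial genes 1 was lower in the adult, Krt19, a duct keratin, at -2.41 (adjusted p = 0.00042), and Esrp1, an epithelial splicing factor, differed by -0.05. Of 7 basal and progenitor genes, which include the growth factor receptor Kit, 6 were lower on deposited FPKM, while on rescaled FPKM 3 were lower and 1 was higher. They ranged from Krt15 at -4.23 (adjusted p = 2.4e-07) to the basal keratin Krt5 at 0.4, not called, which was 1.3 on rescaled FPKM. Of 8 acinar genes 4 were higher (5 rescaled), from the secreted protein Pip at 8.92 (adjusted p = 4.7e-05) to the mucin Muc19 at 0.71, not called. Among 4 tested myoepithelial genes 3 were higher (4 rescaled), with the smooth muscle myosin Myh11 at 3.55 (adjusted p = 6.8e-06) and Acta2 at 0.96, not called. All 8 skeletal muscle genes and all 5 tested erythroid genes were lower, between Myod1 at -1.38 and Hbb-y, an embryonic globin, at -5.55. Acta1, the muscle actin, was at -4.2 and Hbb-bh1 at -1.59. The part of these shifts in the Sox values was not tested.

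**Figure D2:**
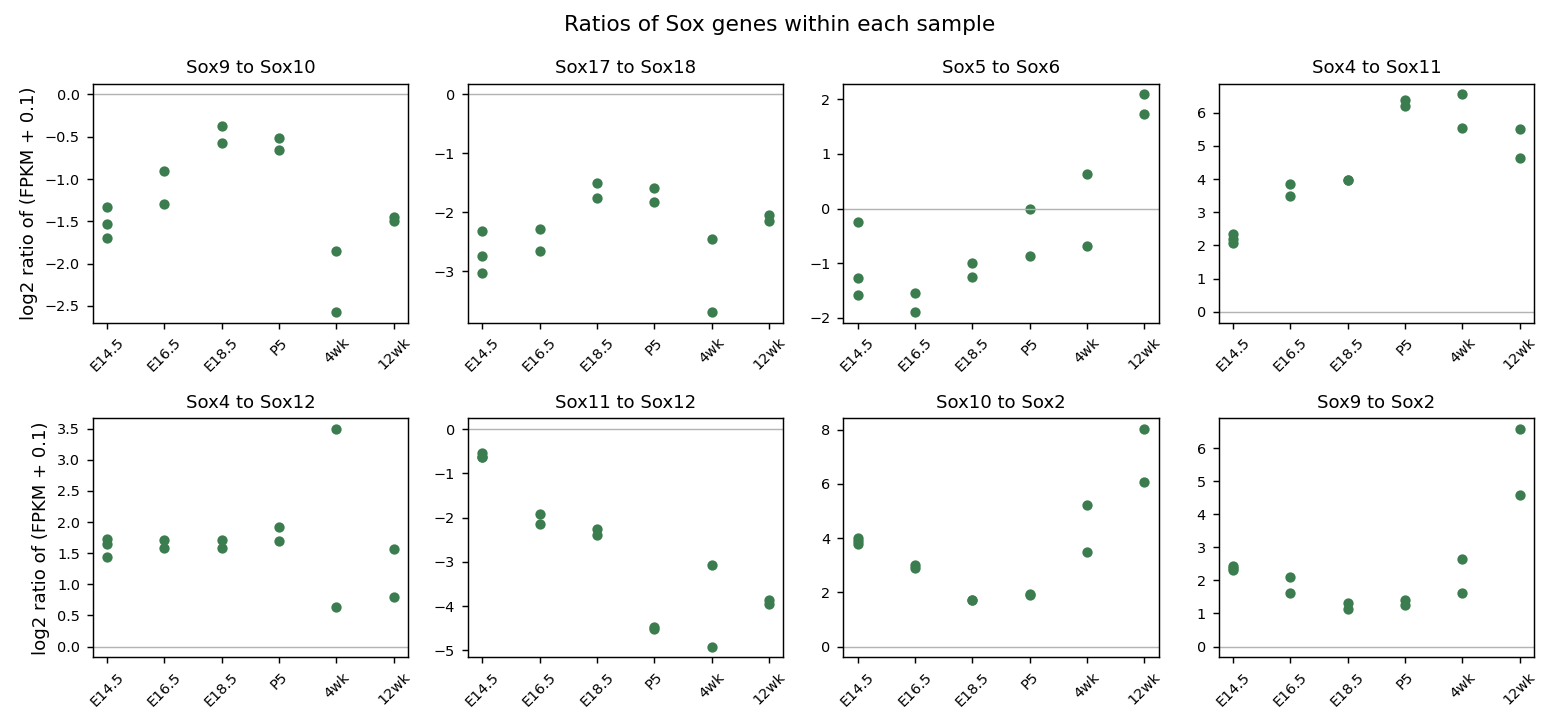
Log2 ratio of (FPKM + 0.1) between Sox genes within each sample (vertical axes) by time point, 1 point per sample, with a line at equal levels. The Sox10 to Sox2 ratio has its lowest value at E18.5 and its highest, 8.02, in a 12wk sample where Sox2 had 1 read, and Sox4 to Sox12 is narrow before birth and wide at 4wk.

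The group C genes Sox4, Sox11 and Sox12, which promote survival and differentiation of progenitors in neural and mesenchymal tissues, were the members with the largest losses on the log2(FPKM + 1) scale, but not at the same age. Sox4, at chr13:29040788-29045582 on the minus strand, had 47.9, 54 and 54.2 FPKM at E14.5, 41.4 and 62.1 FPKM at E16.5 and 26.6 and 22.8 FPKM at E18.5. It had 29.3 and 31 FPKM at P5, 4.54 and 9.28 FPKM at 4wk and 4.7 and 2.81 FPKM at 12wk. An exon of Gm17419 on the other strand overlaps Sox4, and whether the counting used strand is not given in the sources used here. Sox12, at chr2:152219347-152223782 on the minus strand, had the same shape at a lower level, with 17.6, 16.3 and 17.3 FPKM at E14.5, 13.8 and 18.9 FPKM at E16.5 and 8.05 and 7.58 FPKM at E18.5. P5 samples had 8.94 and 8.15 FPKM of Sox12, those at 4wk 2.91 and 0.737 FPKM and those at 12wk 1.53 and 1.58 FPKM. For both genes the adult samples lay below all embryonic and P5 samples, on either scale.

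Sox11, at chr12:28025562-28027574 on the minus strand, was lost earlier. It had 11.4, 10.6 and 11.8 FPKM at E14.5, 3.56 and 4.22 FPKM at E16.5, 1.61 and 1.37 FPKM at E18.5 and 0.296 and 0.275 FPKM at P5. Every time point lay wholly below the one before it up to 4wk, where no read was counted in either sample. At 12wk 1 and 4 reads remained, or 0.00542 and 0.0166 FPKM. From E14.5 to E16.5 Sox11 fell by 1.33 (SE 0.13, adjusted p = 0.00012). The next steps, -0.97 (adjusted p = 0.0033) and -0.95 (adjusted p = 0.0021), were just short of the required size on a scale that adds 1 to a value near or below 1. With a pseudocount of 0.1 both were called, at -1.32 and -2.04, as was P5 to 4wk at -1.95. In read counts relative to depth, 12wk was 24.3-fold lower than P5 (95% interval 10.3 to 75.7, from 5 and 219 reads) and 957-fold lower than E14.5 (410 to 2950). At 4wk Sox11 was at least 4.68-fold lower than P5 and at least 185-fold lower than E14.5, taking 3 reads in each library as the floor. Its FPKM used a counted length of 8451 bases, against 2013 in the GENCODE annotation used here, so that the level of Sox11 relative to other genes depends on the gene model. The same holds for Sox4, with 2953 counted against 4795 annotated bases, and Sox5, with 7334 against 14376.

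Thus the close paralogs Sox4 and Sox11 parted during gestation while Sox4 and Sox12 kept step. Sox4 was 4.22 to 5.1 times Sox11 at E14.5, 11.6 to 14.7 times at E16.5, up to 16.6 times at E18.5 and 98.9 to 113 times at P5. Over the same ages Sox4 was 2.72 to 3.81 times Sox12. From embryo to adult, Sox4 gained 2.44 on Sox11 on the log2 scale (exact p = 0.003, adjusted 0.013) and Sox11 lost 2.45 to Sox12 (exact p = 0.003, adjusted 0.013). These adult ratios are set by the pseudocount, since Sox11 was near 0: with 1 in place of 0.1, the differences were -0.28 and -0.08. Sox4 to Sox12 differed by -0.01 (exact p = 0.96), over adult samples that spread from 0.63 to 3.49. Without 4wk replicate 2 the difference was -0.63 (exact p = 0.017).

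Against the embryo the adult levels of all 3 fell, with log2 fold changes of -2.85 for Sox4 (SE 0.29, adjusted p = 1.2e-06), -2.57 for Sox11 (SE 0.45, adjusted p = 0.00013) and -2.49 for Sox12 (SE 0.27, adjusted p = 1.9e-06). On rescaled FPKM they were -2, -2.29 and -1.79, all past the threshold. Sox4 and Sox12 made their largest step between P5 and 4wk, at -2.05 and -1.87. Sox4 also fell by 1.01 from E16.5 to E18.5 (adjusted p = 0.047), which was lost on rescaled FPKM (-0.86), without E16.5 replicate 2 (-0.72) and without E18.5 replicate 2 (-0.9). Mesenchymal and neural genes were lower in the adult as well. Of 10 mesenchyme genes 9 were lower in the adult on both scales, from Col1a1, a fibrillar collagen chain, at -4.27 (adjusted p = 3.9e-07) to the small proteoglycan Dcn at -0.87, not called. Their sum was 1900 to 2790 FPKM in the embryo and 261 to 528 FPKM in the adult. Of 11 neural genes 8 were lower (7 rescaled), from Stmn2, a tubulin-binding neuronal protein, at -3.29 (adjusted p = 4.5e-07) to Snap25, a synaptic vesicle fusion protein, at -0.7, not called, and the neural sum was 57.8 to 203 FPKM in the embryo and 4.83 to 11.5 FPKM in the adult. Relative to the mesenchyme genes of the same sample, Sox4 differed by 0.4 (exact p = 0.15) and Sox12 by 0.41 (exact p = 0.28). Without 4wk replicate 1 the Sox4 value was 0.64 (exact p = 0.025), and without 4wk replicate 2 the Sox12 value was 0.85 (exact p = 0.0083). Sox11 was lower by 2.04 relative to mesenchyme (exact p = 0.012, adjusted 0.024), a value that turned to 0.41 with a pseudocount of 1. The part of these cell types in the Sox4, Sox11 and Sox12 results was not tested further.

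Sox5 and Sox6, the group D genes, act with SOX9 in cartilage and are also found in neural and muscle lineages. They were among the least abundant members in the embryo, and their courses crossed. Sox6, at chr7:122614858-123182258 on the minus strand, had 1.79, 1.48 and 1.48 FPKM at E14.5, 1.28 and 2.05 FPKM at E16.5, 1.64 and 1.32 FPKM at E18.5 and 1.29 and 0.78 FPKM at P5. Its adult levels were 0.365 and 0.207 FPKM at 4wk and 0.135 and 0.0953 FPKM at 12wk, below all younger samples. Sox5, at chr6:143776945-144730497 on the minus strand, had 1.49, 0.425 and 0.551 FPKM at E14.5, 0.376 and 0.479 FPKM at E16.5 and 0.77 and 0.496 FPKM at E18.5. It had 0.663 and 0.783 FPKM at P5, 0.188 and 0.377 FPKM at 4wk and 0.687 and 0.729 FPKM at 12wk, within the embryonic range on deposited FPKM. On rescaled FPKM the 12wk samples had 1.01 and 1.15 FPKM of Sox5. E14.5 replicate 1 had 1.11 FPKM there, and the other embryonic samples had 0.302 to 0.631 FPKM. An exon of 4933415D12Rik on the other strand overlaps Sox5, which adds to the uncertainty of so low a gene.

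Sox6 fell by 1.1 from embryo to adult (SE 0.13, adjusted p = 3.9e-06), which became -0.79 on rescaled FPKM (adjusted p = 7.6e-05) and lost its call by size. Adding 1 to values near or below 1 makes this change smaller. The rescaled means of Sox6 were 1.23 FPKM in the embryo and 0.299 FPKM in the adult. On deposited FPKM with a pseudocount of 0.1 it fell by 2.55 (limma adjusted p = 2.3e-06). Sox5 differed by -0.14 (adjusted p = 0.49) on deposited and 0.21 (adjusted p = 0.31) on rescaled FPKM. Within samples, the Sox5 to Sox6 ratio went from -1.26 ± 0.53 (SD, n = 7) in the embryo to 0.94 ± 1.25 (SD, n = 4) in the adult, a change of 2.2 (exact p = 0.0061, adjusted 0.018) that lay between 1.82 and 2.75 with each sample left out and was 0.97 with a pseudocount of 1. At 12wk both samples had more Sox5 than Sox6, at 1.74 and 2.09 on the log2 scale. The reads behind these values at 4wk were 8 and 22 for Sox5 and 18 and 14 for Sox6. At 12wk they were 110 and 152 for Sox5 and 25 and 23 for Sox6. Relative to the mesenchyme genes both were higher in the adult, Sox5 by 3.13 (exact p = 0.003, adjusted 0.013) and Sox6 by 0.93 (exact p = 0.0061, adjusted 0.018), or 1.88 with a pseudocount of 1.

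The E14.5 value of Sox5 rests on a sample with cartilage RNA. In E14.5 replicate 1 Sox5 was 3.06 times the mean of the other E14.5 samples, and all 11 cartilage genes were at their highest of all samples, Col2a1, the main cartilage collagen, with 142 FPKM against 2.87 and 4.04 FPKM. Their sum was 3.32 times that of the other E14.5 samples. Sox9 was not higher there: at 11.7 FPKM it was 0.668 times their mean, and Sox6 was 1.21 times. Epithelial genes were low in this sample too, with a sum of 385 FPKM against 671 and 654 FPKM. Sox2 and Sox10 were 0.711 and 0.811 times the mean of the other E14.5 samples. Relative to the epithelial genes, Sox9 had a log2 ratio of -1.35 in this sample and -1.58 and -1.65 in those. The part of epithelial and of cartilage RNA in its Sox9 level was not tested. Without this sample Sox5 was under the minimum for testing, and 9 of the 10 genes could be tested. Of the 11 cartilage genes 5 were lower in the adult, from Col9a1 at -5.17 (adjusted p = 6.4e-08) to the matrix protein gene Comp at 0.03, not called. The adult cartilage sums were 2.09 to 3.73 FPKM, with Sox9 at 7.13 to 11.2 FPKM in the same samples, while Acan and Matn1, which encode cartilage matrix proteins, were at 0 in all 4.

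**Figure D3:**
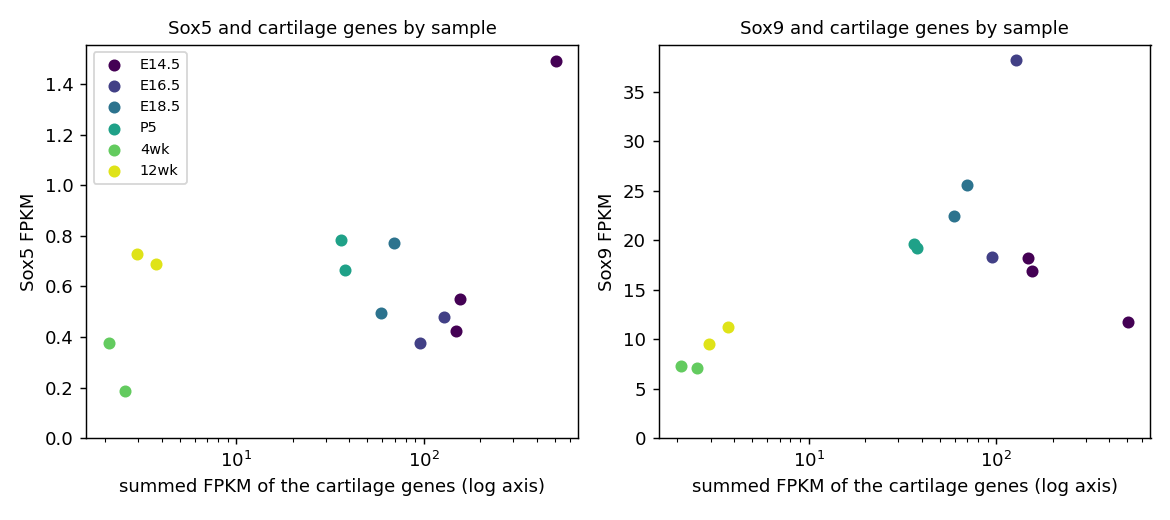
FPKM of Sox5 (left) and Sox9 (right) in each of the 13 samples against the summed FPKM of 11 cartilage genes (horizontal, log axis), coloured by time point. E14.5 replicate 1, at 504 FPKM of cartilage genes, has the highest Sox5 of all samples, 1.49 FPKM, and 11.7 FPKM of Sox9, the lowest Sox9 before birth.

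Sox17 and Sox18, the group F genes, are factors of blood and lymphatic endothelium, SOX18 acting upstream of Prox1 in lymphatic specification. Sox18, at chr2:181404541-181406345 on the minus strand, had 7.27, 11.6 and 10.4 FPKM at E14.5, 11.5 and 15.8 FPKM at E16.5, 6.66 and 7.6 FPKM at E18.5 and 10.9 and 7.62 FPKM at P5. In the adults it had 4.03 and 1.55 FPKM at 4wk and 2.38 and 2.04 FPKM at 12wk. Sox17, at chr1:4481009-4486494 on the minus strand, had 1.38, 1.32 and 1.48 FPKM at E14.5, 1.74 and 3.18 FPKM at E16.5, 1.92 and 2.6 FPKM at E18.5 and 3.57 and 2.09 FPKM at P5. Its adult levels were 0.22 and 0.201 FPKM at 4wk, from 4 and 5 reads, and 0.498 and 0.382 FPKM at 12wk. For both genes the adult samples were below all others on deposited FPKM, and the mean of Sox17 was highest at P5 whereas that of Sox18 was highest at E16.5. Adult against embryo, Sox17 fell by 1.13 (SE 0.18, adjusted p = 7.7e-05) and Sox18 fell by 1.66 (SE 0.24, adjusted p = 2.1e-05). Rescaled, the values of -0.75 (adjusted p = 0.0026) and -0.91 (adjusted p = 0.0022) were below the required size. For Sox17, adding 1 to values near or below 1 makes the change smaller. Its rescaled means were 1.53 FPKM in the embryo and 0.492 FPKM in the adult. On deposited FPKM with a pseudocount of 0.1 it fell by 2.26 (limma adjusted p = 1.6e-05). From P5 to 4wk the Sox17 fold change was -1.64 on deposited and -1.45 on rescaled FPKM (adjusted p = 0.00019 and 0.00037), both calls. Sox18 fell by 1.5 (adjusted p = 0.0019), with -0.99 on rescaled FPKM, short of a call.

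Blood vessel genes were lower in the adult as well. Of 10 endothelial genes 9 were lower in the adult on deposited and 4 on rescaled FPKM, from Cldn5, a tight junction protein, at -2.83 (adjusted p = 5.2e-08) to Vwf, von Willebrand factor, at -0.06, not called. Embryonic samples had sums of 150 to 185 FPKM, P5 samples 122 and 169 FPKM and adult samples 32.1 to 61.4 FPKM. Relative to the endothelial genes of the same sample, Sox18 differed by -0.04 between adult and embryo (exact p = 0.88) with a range of -0.17 to 0.18 when each sample was left out. For Sox17 the difference was -0.31 (exact p = 0.46, range -0.61 to 0.04). Sox17 was not steady against the endothelial genes, however. Its log2 ratio to them was -3.14 to -3.06 at E14.5 and -1.89 and -2.22 at P5. It was -4.03 and -3.53 at 4wk, where Sox17 had 4 and 5 reads, and -2.07 and -2.36 at 12wk. These differences between ages were not tested. The Sox17 to Sox18 ratio differed by -0.26 (exact p = 0.53) and reached 0.54 with a pseudocount of 1. No change between the paralogs was thus detectable between adult and pooled embryo. Within the younger ages the log2 ratio was not steady. It was -3.04 to -2.32 at E14.5, -1.75 and -1.51 at E18.5 and -1.58 and -1.82 at P5, a course that was not tested. Of the 4 lymphatic genes 3 were tested and 2 were lower (1 rescaled), with Lyve1, a hyaluronan receptor, at -2.26 (adjusted p = 2.8e-05) and Prox1 at -0.65, not called. Sox7, the remaining group F gene, fell by 2.04 (adjusted p = 2.1e-06), and by 1.58 on rescaled FPKM.

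Across the family the adult glands had less Sox RNA, by an amount that depended on scaling. Against the embryo 8 of 10 members were lower and none was higher, where 38% of all tested genes were called lower and 5.58% higher. The exceptions were Sox10 and Sox5. On rescaled FPKM 4 were lower, Sox2, Sox4, Sox11 and Sox12, where 14.7% of all genes were. Sox6 and Sox17 missed the required size there at levels near or below the 1 that is added. The median over the 10 was -1.41 on deposited and -0.85 on rescaled FPKM, beside -0.75 and -0.08 over all genes. Adult values were below all embryonic ones for 7 of 10 members (54.1% of all genes) and, rescaled, for 5 (24% of all genes). Against P5, 6 members were lower in the adult (20.8% of all genes), namely Sox2, Sox4, Sox9, Sox12, Sox17 and Sox18, and rescaled all of these but Sox9 (8.53%). The comparisons of adult with embryo and with P5 share the adult samples. P5 against embryo, only Sox11 was called, lower by 2.22 (SE 0.57, adjusted p = 0.014), where 8.14% of genes were called lower, and it was lost at adjusted p = 0.12 without either P5 sample.

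**Figure D4:**
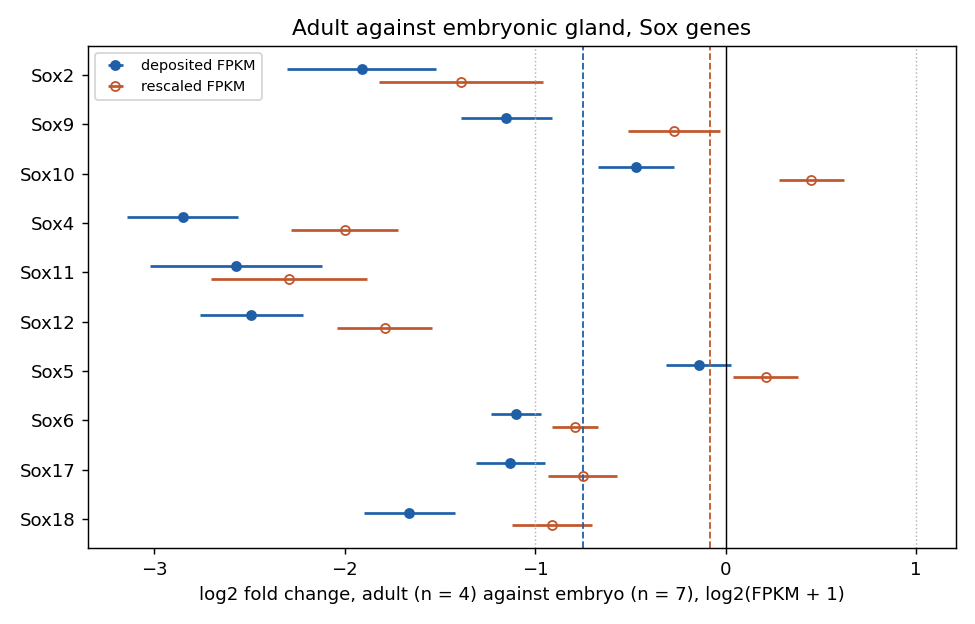
Log2 fold change (horizontal axis, log2(FPKM + 1) scale) of each Sox gene in 4 adult against 7 embryonic samples, on deposited (filled) and rescaled (open) FPKM, with bars of 1 SE from limma. Dashed lines give the median of all 14650 tested genes, -0.75 and -0.08, and dotted lines the size required for a call. Sox4, Sox11, Sox12 and Sox2 lie past that size on both scales, and Sox10 changes sign between them.

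In time, the family had 1 broad step. Between P5 and 4wk 6 members fell, Sox2, Sox4, Sox9, Sox12, Sox17 and Sox18, where 22.1% of all genes were called lower, and Sox2, Sox4, Sox12 and Sox17 were called on rescaled FPKM, where 8.72% were. Between E14.5 and E16.5 Sox2 rose and Sox11 fell, with 4.17% of all genes called higher and 0.983% lower. Without E16.5 replicate 1 Sox9 was called as well. From E16.5 to E18.5 only Sox4 was called (1.85% of genes were lower). Without E16.5 replicate 1 there were 4, Sox4, Sox10, Sox11 and Sox12. Across birth, E18.5 to P5, no member was called by limma (5.04% of genes), and of the 10 only Sox11 had an unadjusted p under 0.05, at 4.3e-05. Sox11 was called at this step without E18.5 replicate 2, at -1.02 (adjusted p = 0.012). From 4wk to 12wk only Sox2 was called (2.48% of genes were lower), joined by Sox4 at -1.14 (adjusted p = 0.027) without 4wk replicate 1.

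**Figure D5:**
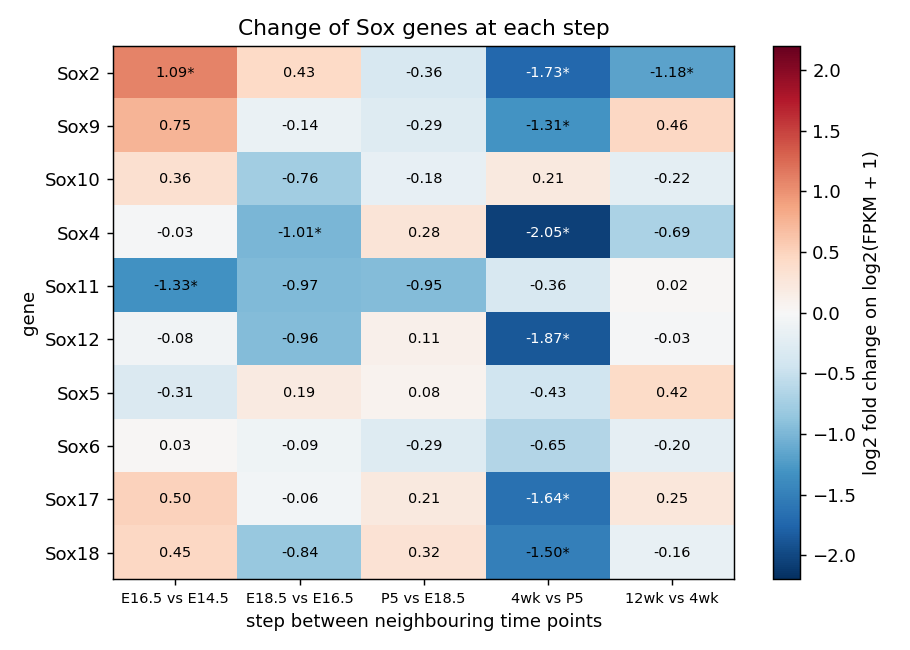
Log2 fold change (log2(FPKM + 1) scale, colour and printed value) of each Sox gene at the 5 steps between neighbouring time points, with stars on changes of at least 1 with adjusted p below 0.1 by limma. Of the steps, P5 to 4wk holds 6 of the 10 starred cells, and Sox2 has stars at the start and the end of the series.

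Other Sox genes were measured as well. Of 10 listed, 4 reached 1 FPKM and were tested. Sox13, a group D relative of Sox5 and Sox6, was far above them at 6.69 to 16.6 FPKM in all samples, with an adult difference of -0.39 (adjusted p = 0.049) that was 0.47 on rescaled FPKM. Sox8, the third group E gene, had 0.627 to 4.58 FPKM in the embryo and 0.0938 to 0.516 FPKM in the adult, and fell by 1.19 (adjusted p = 0.0018), or by 0.81 on rescaled FPKM, where it was not called. The B2 and testis genes Sox14 and Sry were listed at 0 in all samples.

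The genes whose course was most like that of a Sox gene were found by the root mean square difference of centred log2(FPKM + 1) over the 13 samples, among 12787 genes. For Sox2 they were Lypd6b, F2rl1 and Gfpt2, at 0.329, 0.341 and 0.352 log2 units, against a range of 3.45 for Sox2 itself. For Sox9 they were Cdkn1b, Itpripl1 and Fam110a at 0.166 to 0.2, and for Sox10 Prob1, Med26 and Pla2g6 at 0.149 to 0.173. For Sox17 they were Npr1, Trim3 and Miip at 0.162 to 0.168. All profiles share the libraries and their scaling, so the likeness is a description only.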

How the data were processed

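RNA-seq of dissected C57BL/6 mouse submandibular glands (13 samples, 6 time points) was analysed. Reads of 50 bp (single-end) were aligned by the authors with TopHat2 2.0.13 on Bowtie2 2.2.6 against mm9. They counted reads on UCSC genes with featureCounts, dropping reads with several locations or genes. The authors used DESeq2 1.10.1 to derive the deposited FPKM per gene and describe median normalization between samples. Factors computed here by the median of ratios nevertheless ran from 0.617 to 1.38 between samples, so the values were treated as scaled by library size only. Groups were taken from the labels. The 10 Sox genes and the marker lists were chosen with earlier results of these data known.

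From the FPKM, log2(FPKM + 1) was fitted with limma 3.58.1 (R 4.3.3, eBayes with trend), once by stage and once by time point, over the 14650 genes that reached 1 FPKM anywhere. Calls required an absolute log2 fold change of at least 1 and a Benjamini-Hochberg adjusted p below 0.1 over all tested genes. Fold changes on this scale understate those of low genes. Only the adult against embryo contrast of the fit by stage was checked on simulated data. These had equal spread for all genes, and only genes of higher level were changed. The fit by time point and changes of low genes were not checked in this way. Whole reads were recovered from FPKM with the counted gene lengths and the reads on genes of each library (all member values within 0.01 of a whole number). They served for intervals (exact Poisson, 95%) and a floor of 3 reads, which cover counting error only, and not for a count model. Libraries held 5817293 to 48314162 reads on genes, and replicates are the study's biological replicates of this inbred strain. In the fit by time point, p-values measure the spread between samples of the same age. The fit by stage and the permutation tests pooled embryonic samples of different ages, and likewise adult samples. The spread behind their p-values thus includes change with age within a stage. From E14.5 to E18.5 mean Sox2 went from 2.93 to 10.1 FPKM and mean Sox11 from 11.3 to 1.49 FPKM. Mean Sox6 was 1.58 and 1.48 FPKM at these ages.

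Within-sample ratios used log2(FPKM + 0.1) and exact permutation over samples (scipy 1.17.1), and a marker list entered as the mean of its genes. Adjustment over the 18 ratios was added after the data were seen. Named are the 10 members, the other Sox genes by level, the gene of each list with the largest and smallest change from embryo to adult, and the 3 genes most like Sox2, Sox9, Sox10 and Sox17. Erbb3, Mal and Cdh19 were named after the data were seen. Sequences and positions come from GENCODE M1 on NCBIM37, which is mm9. Alternatives were a pseudocount of 0.1 (1 for ratios), no filter, median-of-ratios rescaling over 13039 genes above 0 in all samples, adjusted p below 0.05, the replicate number as a block, and each sample left out. Deviations from the time point means correlated on average at -0.016 between samples of 1 replicate number (30 pairs), so the numbers were not taken as pairing.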

Additional observations from a re-analysis of the deposited data

Results flagged for a closer look

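Sox5 in E14.5 replicate 1, at 1.49 FPKM, lay far from the other 6 embryonic samples. On log2(FPKM + 1), its gap to the nearest of them was 0.576 of the whole embryonic range. That is past the 95% critical value of 0.568 for 7 samples. It was the 1 such case in 20 groups checked, about as many as chance gives at 1 in 20. Cartilage genes were also highest in this sample, and their part in the Sox5 value was not tested.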

How the results depend on the processing

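On rescaled FPKM the number of members lower in adult against embryo went from 8 to 4 and the number called from E16.5 to E18.5 from 1 to 0. Differences between stages that changed sign there were Sox10 (0.45) and Sox5 (0.21) in adult against embryo, Sox5 in adult against P5 (0.03), and Sox9 (0.18) and Sox18 (0.15) in P5 against embryo. At the steps Sox17 from E16.5 to E18.5 (0.04) and Sox12 from 4wk to 12wk (0.01) did so. With a pseudocount of 0.1, 2 members were called from E16.5 to E18.5 and 1 from E18.5 to P5, Sox11 being the addition, 9 from P5 to 4wk (with Sox5, Sox6 and Sox11) and 8 in adult against P5 (with Sox6 and Sox11). With a pseudocount of 1 in the ratios, differences were 0.54 for Sox17 to Sox18, -0.28 for Sox4 to Sox11, -0.08 for Sox11 to Sox12, 0.77 for Sox9 to Sox2 (exact permutation p = 0.11), 0.41 for Sox11 to mesenchyme, 0.54 for Sox17 and 0.01 for Sox18 to endothelium. Adult levels of Sox2, Sox11 and Sox17 near the added value make these values depend on what is added. Some ratios kept direction and an exact permutation p below 0.05 but moved by over 1.5 times. They were Sox10 to Sox2 (1.44), Sox5 to Sox6 (0.97), Sox2 to epithelium (-1.34) and Sox6 to mesenchyme (1.88). Without such a p on either setting, Sox4 to Sox12 moved to -0.36 and Sox4 to mesenchyme to 0.13.

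With each sample left out, lower calls ranged from 0 to 1 in P5 against embryo, 5 to 6 in adult against P5 and stayed at 8 in adult against embryo. Calls at the steps ranged from 1 to 3, 0 to 4, 0 to 1, 6 to 6 and 0 to 2 in order of age. Ratio differences ranged from -0.87 to -0.5 for Sox9 to Sox10, -0.44 to 0.11 for Sox17 to Sox18, -0.63 to 0.32 for Sox4 to Sox12, 1.93 to 3.45 for Sox10 to Sox2 and 1.06 to 2.71 for Sox9 to Sox2. To the lists they were -3.22 to -1.74 for Sox2, -0.15 to 0.29 for Sox10, 0.21 to 0.64 for Sox4, 0.15 to 0.85 for Sox12, -0.61 to 0.04 for Sox17 and -0.17 to 0.18 for Sox18. Differences between stages that crossed 0 were Sox9 (-0.19 to 0.08) and Sox18 (-0.32 to 0.14) in P5 against embryo and Sox10 (-0.05 to 0.17) in adult against P5. Of 50 differences at the steps, 12 crossed 0, and none of these was called. The replicate block changed none of the counts of calls, which stayed at 8 in adult against embryo and 6 in adult against P5, and the numbers mark no shared animal. No filter and an adjusted p below 0.05 gave counts within 1.5 times those reported. The cause of these shifts was not tested. Depth limits Sox2, Sox6, Sox11 and Sox17 in the adult, with 0 to 45 reads per sample. It also limits Sox5, Sox12 and Sox18 at 4wk, with 8 to 75 reads.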
